A study of Mus musculus with 13 samples.

Results

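The 9 interferon-stimulated genes Isg15, Usp18, Irf7, Ifit1, Ifit3, Oasl2, Bst2, Ifitm3 and Ifi27 were followed through RNA sequencing counts of the CA1 region of mouse entorhino-hippocampal tissue cultures. They were taken by symbol, as 9 of the 55291 gene symbols in the count tables, and all 9 were found. The libraries came from 13 cultures, with 5 non-lesioned controls, 4 cultures after Schaffer collateral lesion (SCL) and 4 after entorhinal cortex lesion (ECL). SCL cuts the axons that run from CA3 to CA1, and ECL cuts the fibers that reach CA1 from the entorhinal cortex, both with a scalpel. The question was how CA1 tissue that had lost one or the other input differed from intact tissue.

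Cultures of all 3 groups were made from wildtype C57BL/6 mice of postnatal day 4 to 5 and kept for at least 18 days in vitro. RNA was taken 3 days after the lesion, and each library held the CA1 region of 1 culture, so that p-values measure the spread between cultures. Slices hold microglia, astrocytes, oligodendrocytes and neurons, but have no blood flow and receive no blood cells. The labels' protocol text speaks of the dentate gyrus, while the titles name CA1. All 9 of 9 CA1 pyramidal neuron markers had enough counts to be tested and summed to 353 to 590 CPM per library (counts per 1000000 counts, the unit of all levels given here), against 3 of 10 markers of dentate granule cells and 2 of 6 of CA3 pyramidal neurons. Libraries held 14371152 to 56786613 counts, and the sex given in the column headings was unbalanced (2 male of 5 controls, 1 male of 4 SCL and 3 male of 4 ECL cultures).

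Type I interferons are secreted proteins that bind the receptor pair Ifnar1 and Ifnar2 on nearly every cell. The kinases Jak1 and Tyk2 then activate transcription factors that bind a promoter sequence known as the interferon-stimulated response element. Genes switched on in this way make proteins that recognise viral RNA, restrict viruses at membranes or adjust the signal itself, and in brain tissue microglia are among the cells known to express many of them.

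The element is built from repeats of GAAA with short spacers between them. The motif of GAAA, then any 2 bases, then GAAA was searched on both strands, with overlapping matches counted, in RefSeq promoter windows on GRCm38.p6 that run from 250 bases before to 50 bases after a gene's start. Windows were held for 7 of the 9 genes. It stood in 5 of these 7 windows, beside 1079 of 27025 genes (4.0%) with a window of this length. The 5 stretches are shown because they hold the sequence feature that these 5 genes share. The matched bases are in capitals, and each stretch is read 5′ to 3′ along its gene.
Isg15, chr4:156200870-156200901, minus strand: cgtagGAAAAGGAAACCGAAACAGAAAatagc
Ifit1, chr19:34640780-34640818, plus strand: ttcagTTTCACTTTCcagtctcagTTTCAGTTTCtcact
Ifit3, chr19:34583368-34583421, plus strand: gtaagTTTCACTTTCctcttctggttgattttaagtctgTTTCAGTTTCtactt
Bst2, chr8:71537582-71537607, minus strand: tccagGAAAATGAAACTGAAAggctg
Ifitm3, chr7:141010715-141010743, minus strand: gGAAAAGGAAActtctgaGAAACCGAAAc

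Isg15 held 3 overlapping matches, and the other 4 held 2 matches each. Those of Ifit1 and Ifit3 lay on the opposite strand and therefore read TTTC, and those of Ifitm3 lay just after the start rather than before it. The windows of Irf7 and Oasl2 held no match, which says only that these letters are not within them. Among the other gene lists, the motif stood in 22 of 41 windows of further interferon-stimulated effectors in 9 of 10 of the interferon-gamma-inducible GTPases, in 11 of 20 of the interferon ligands and in 4 of 14 of the MHC class I genes. It stood in 1 of 11 windows for receptors and JAK-STAT signalling and in 2 of 14 for microglia markers.

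Both lesions left CA1 with more RNA of several of these genes. Ifitm3, a membrane protein that keeps viruses from fusing with endosomes, and Ifi27, a mitochondrial and nuclear envelope protein, rose after SCL and after ECL with no overlap between lesioned and control cultures. Ifit3, a relative and partner of the RNA-binding protein Ifit1, passed the test after both lesions with groups that overlapped. Bst2, a protein that tethers virus particles to the cell surface, was called after SCL, and Oasl2, an oligoadenylate synthetase-like protein, was called after ECL.

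In counts, 7 of the 9 genes reached the mean normalized count of 150 set for a test in the lesion comparisons, while Isg15 and Irf7 did not. By edgeR's quasi-likelihood test with Benjamini-Hochberg adjustment over all genes, 4 of 7 were higher after SCL, beside 13.1% of the 11438 genes tested, and none was lower, beside 11.8%. After ECL, 4 of 7 were higher, beside 15.2% of 11212 genes tested, and none was lower, beside 12.5%. Both comparisons share the 5 controls. Among all genes called, 52.8% were higher after SCL and 54.8% after ECL. With other scalings these shares were 64.6% and 62.4% (DESeq2) and 80.8% and 77.8% (TMM factors from all symbols, which moved the median of all genes to 0.21 and 0.18 on the log2 scale). Rises are therefore given relative to all genes that entered each fit. For the 7 genes, the median log2 fold change was 0.96 after SCL and 1.12 after ECL, against 0.01 and -0.01 for all genes tested.

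**Figure D1:**
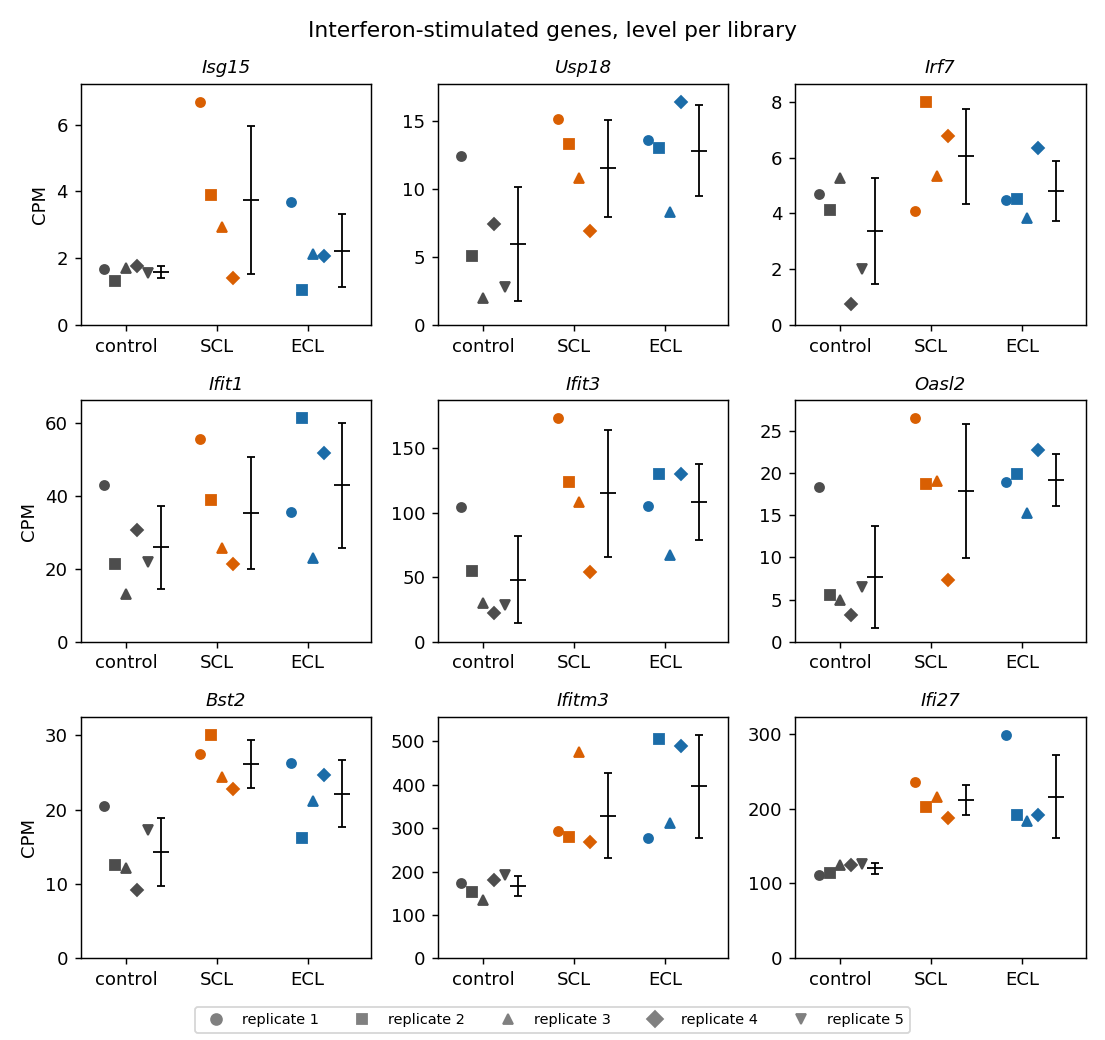
Level in CPM (linear axes that start at 0) of each gene in each library, with 5 control, 4 SCL and 4 ECL cultures. Symbols give the replicate and the bars give the mean ± SD of each group. For Ifi27 and Ifitm3 every lesioned culture lies above every control, whereas control replicate 1 (filled circle) reaches the lesioned cultures for Usp18, Ifit1, Ifit3 and Oasl2.

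Isg15 is a small ubiquitin-like protein that is attached to other proteins after interferon. It lies at chr4:156199424-156200818 of GRCm38 (minus strand, GENCODE M21). It was low in all libraries, at 1.68, 1.32, 1.69, 1.75 and 1.55 CPM in the controls, 6.69, 3.89, 2.94 and 1.42 CPM after SCL and 3.68, 1.04, 2.11 and 2.05 CPM after ECL. The controls were tight, and 3 of 4 cultures in each lesion group lay above all of them, while SCL replicate 4 lay within and ECL replicate 2 below the control range. Below the count minimum, edgeR with the wider filterByExpr selection gave a log2 fold change of 1.31 after SCL (SE 0.42, adjusted p = 0.0469) and 0.57 after ECL (SE 0.42, adjusted p = 0.364).

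Usp18 removes Isg15 from its targets and also blocks the Ifnar2 receptor chain, which dampens the response. The gene (chr6:121245906-121270917, plus strand) stood at 12.4, 5.06, 1.96, 7.43 and 2.75 CPM in controls, 15.1, 13.3, 10.8 and 6.88 CPM after SCL and 13.6, 13, 8.30 and 16.4 CPM after ECL. Control replicate 1 lay within the lesioned range, and the other 4 controls lay below most lesioned cultures. The log2 fold changes of 0.96 after SCL (SE 0.44, edgeR adjusted p = 0.127) and 1.12 after ECL (SE 0.43, edgeR adjusted p = 0.0645) did not pass the test. Without control replicate 1 both passed, at 1.42 (edgeR adjusted p = 0.0296) and 1.57 (edgeR adjusted p = 0.0118), and with all libraries the ECL value passed by DESeq2 (adjusted p = 0.0215) and with TMM factors over all symbols (edgeR adjusted p = 0.0342). Of its exon bases, 4.4% overlap Gm44148 on the opposite strand, and counting ignored strand.

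Irf7, the transcription factor that amplifies type I interferon production, lies at chr7:141262706-141266481 (minus strand). Its controls held 4.69, 4.11, 5.27, 0.764 and 2.02 CPM, the SCL cultures 4.09, 8.01, 5.34 and 6.76 CPM and the ECL cultures 4.47, 4.52, 3.84 and 6.36 CPM. Of these, 3 SCL cultures and 1 ECL culture exceeded all controls. With the wider selection the log2 fold change was 0.90 after SCL (SE 0.44, edgeR adjusted p = 0.173) and 0.58 after ECL (SE 0.44, edgeR adjusted p = 0.373).

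Ifit1 binds RNA that lacks the methylated cap of host messages. At chr19:34640871-34650009 (plus strand), it had 42.9, 21.2, 13, 30.7 and 21.9 CPM in controls, 55.5, 38.7, 25.6 and 21.3 CPM after SCL and 35.6, 61.2, 22.9 and 51.6 CPM after ECL. Lesioned and control cultures were interleaved. Neither the log2 fold change after SCL (0.45, SE 0.33, edgeR adjusted p = 0.33) nor that after ECL (0.73, SE 0.32, edgeR adjusted p = 0.101) passed the test. The ECL value passed when 1 library was left out, at 0.99 without control replicate 1 (edgeR adjusted p = 0.0339) and 0.94 without ECL replicate 3 (edgeR adjusted p = 0.0361).

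Ifit3 (chr19:34583531-34588731, plus strand) was measured at 104, 55.1, 30.3, 22.6 and 28.2 CPM in controls, 173, 124, 108 and 53.9 CPM after SCL and 105, 130, 67.3 and 130 CPM after ECL. All but the lowest lesioned culture of each group lay above control replicate 1, the highest control. The rise was 2.39-fold after SCL (log2 1.25, SE 0.42, edgeR adjusted p = 0.044) and 2.25-fold after ECL (log2 1.17, SE 0.37, edgeR adjusted p = 0.0316). Both calls depended on which library was left out. After SCL the call was lost on leaving out any one of control replicates 2 to 5 or SCL replicates 1 to 3 (edgeR adjusted p from 0.0591 to 0.134), while without control replicate 1 or SCL replicate 4 it remained (edgeR adjusted p = 0.0087 and 0.0213). After ECL it was lost without control replicate 3, 4 or 5 or ECL replicate 1, 2 or 4 (edgeR adjusted p from 0.0523 to 0.0829), and DESeq2 called it after neither lesion (adjusted p = 0.0706 and 0.0521).

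The neighbouring copy Ifit3b is so similar that 68.3% of the 100-base stretches of Ifit3 transcripts occur in no other gene. Reads could thus have been split between both or set aside. Ifit3b itself had log2 fold changes of 1.15 after SCL (SE 0.40, edgeR adjusted p = 0.0527) and 1.05 after ECL (SE 0.34, edgeR adjusted p = 0.0341). Ifit1 shares fewer stretches with its copy Ifit1bl2, and 96.7% of its own are unique.

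Oasl2 (chr5:114896936-114912234, plus strand) belongs to the family of oligoadenylate synthetases, the sensors of double-stranded RNA. Controls held 18.3, 5.58, 5.00, 3.22 and 6.45 CPM, SCL cultures 26.5, 18.7, 19.1 and 7.29 CPM and ECL cultures 18.9, 19.9, 15.3 and 22.7 CPM. Apart from control replicate 1, every control lay below every lesioned culture. The log2 fold change was 1.22 after SCL, which missed the threshold (SE 0.46, edgeR adjusted p = 0.0696), and 1.32 after ECL, which passed (SE 0.40, edgeR adjusted p = 0.0236). Without control replicate 1 the SCL value was 1.82 (edgeR adjusted p = 0.00913) and without SCL replicate 4 it was 1.47 (edgeR adjusted p = 0.0317). DESeq2 called Oasl2 after SCL (adjusted p = 0.025), as did edgeR with TMM factors over all symbols (adjusted p = 0.043) and in a single fit of all libraries (adjusted p = 0.0391). The ECL call was lost without control replicate 5, ECL replicate 2 or ECL replicate 4 (edgeR adjusted p from 0.0545 to 0.0634).

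Bst2, also called tetherin, lies at chr8:71534255-71537456 (minus strand). Its level was 20.5, 12.6, 12.2, 9.17 and 17.2 CPM in controls, 27.4, 30.0, 24.3 and 22.8 CPM after SCL and 26.3, 16.2, 21.1 and 24.7 CPM after ECL. All 4 SCL cultures exceeded all 5 controls, and ECL replicate 2 fell within the control range. The rise after SCL was 1.82-fold (log2 0.87, SE 0.23, edgeR adjusted p = 0.0157), and its call was lost without SCL replicate 2 (0.79, edgeR adjusted p = 0.0517). After ECL the log2 fold change was 0.63 (SE 0.25, edgeR adjusted p = 0.0685), and it passed without control replicate 1 (0.80, edgeR adjusted p = 0.0323) and, with all libraries, by DESeq2 (adjusted p = 0.0373), with TMM factors over all symbols (edgeR adjusted p = 0.0358) and in a single fit of all libraries (edgeR adjusted p = 0.0401).

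Ifitm3, at chr7:141009586-141010770 (minus strand), had the highest level per kilobase of exon. Controls held 173, 152, 134, 181 and 192 CPM, SCL cultures 294, 279, 474 and 267 CPM and ECL cultures 277, 506, 311 and 488 CPM. No lesioned culture overlapped a control. The rise was 1.97-fold after SCL (log2 0.98, SE 0.18, edgeR adjusted p = 0.00359) and 2.39-fold after ECL (log2 1.26, SE 0.19, edgeR adjusted p = 0.000528).

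Ifi27, at chr12:103434211-103440239 (plus strand), had 111, 114, 124, 125 and 126 CPM in controls, 235, 202, 216 and 188 CPM after SCL and 298, 191, 183 and 191 CPM after ECL. Both groups of lesioned cultures stood clear of a tight set of controls. The log2 fold change was 0.81 after SCL (SE 0.12, edgeR adjusted p = 0.00145) and 0.86 after ECL (SE 0.16, edgeR adjusted p = 0.00158), that is 1.76-fold and 1.81-fold. Groups without overlap were thus found for Bst2, Ifitm3 and Ifi27 after SCL, beside 12.1% of all genes tested that lay higher without overlap, and for Ifitm3 and Ifi27 after ECL, beside 12.8%.

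**Figure D2:**
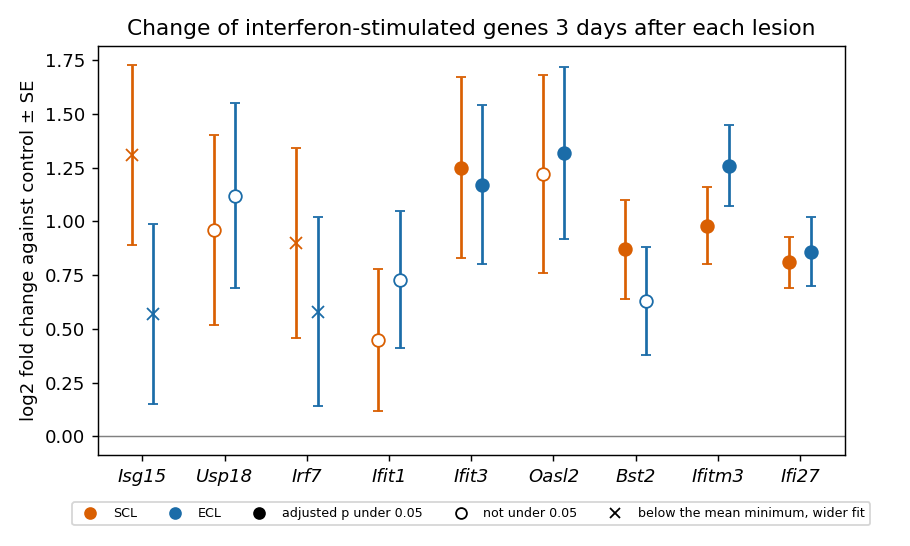
Log2 fold change against control ± SE for each gene after SCL (orange) and ECL (blue), from edgeR. Filled circles passed an adjusted p of 0.05 and open circles did not, and crosses mark Isg15 and Irf7, which lay under the count minimum and come from the wider selection. All values are above 0, from 0.45 for Ifit1 after SCL to 1.32 for Oasl2 after ECL.

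Per kilobase of exon, the control levels ordered the genes as Ifitm3 (246 CPM per kb), Ifi27 (81.8), Ifit3 (27.5), Bst2 (15.9), Ifit1 (9.76), Usp18 (2.12), Isg15 (2.11), Oasl2 (1.21) and Irf7 (0.892). Over all libraries, Ifitm3 and Ifi27 kept the first and second place in each group mean. Ifitm3 lay at 484 CPM per kb after SCL and 583 after ECL, and Ifi27 at 144 and 147. In controls, the range of Ifitm3 (198 to 283 CPM per kb) and that of Ifi27 (75.9 to 85.8) overlapped with no other gene. Ifit3, Bst2 and Ifit1 overlapped with each other, as did Usp18, Isg15 and Oasl2, and Irf7 overlapped with Oasl2 and Usp18. The order within these neighbours lies within their spread.

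The genes also differed in how much cultures of the same group varied. The within-group SD of log2 CPM was 0.20 for Ifi27, below the median of 0.28 for genes tested after both lesions, and 0.35 for Ifitm3 and for Bst2. It was 0.63 for Ifit1, 0.64 for Isg15, 0.73 for Ifit3, 0.74 for Oasl2, 0.75 for Usp18 and 0.76 for Irf7. At least 96.8% of genes tested after both lesions varied less than each of these 6. Isg15 and Irf7 lay under the count minimum that those genes passed, so that their place among them is not like for like. In controls alone, the highest culture held 6.33 times the lowest for Usp18, 5.67 times for Oasl2 and 4.60 times for Ifit3, against 1.43 times for Ifitm3 and 1.13 times for Ifi27.

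This variation ran partly along the same cultures. Control replicate 1 was the highest control for 5 of 9 genes, SCL replicate 4 was the lowest SCL culture for 8 of 9, and ECL replicate 3 was the lowest ECL culture for 6 of 9. The log2 CPM of the 7 tested genes in control replicate 1 lay on average 0.80 above the control mean, whereas that of SCL replicate 4 lay at -0.57 and that of ECL replicate 3 at -0.41 relative to their groups. After group means were removed, Ifit3 and Oasl2 followed each other most closely over the 13 libraries (r = 0.91), then Usp18 and Ifit1 (r = 0.85). Ifi27 had r from 0.01 to 0.05 against Usp18, Ifit1, Ifit3 and Oasl2, but 0.68 against Isg15 and -0.30 against Ifitm3. These are descriptions over libraries that differ in depth and share their group means. SCL replicate 4 (16405517 counts) and ECL replicate 3 (20210165 counts) were also the shallowest libraries of their groups. The part of depth in this variation was not tested.

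**Figure D3:**
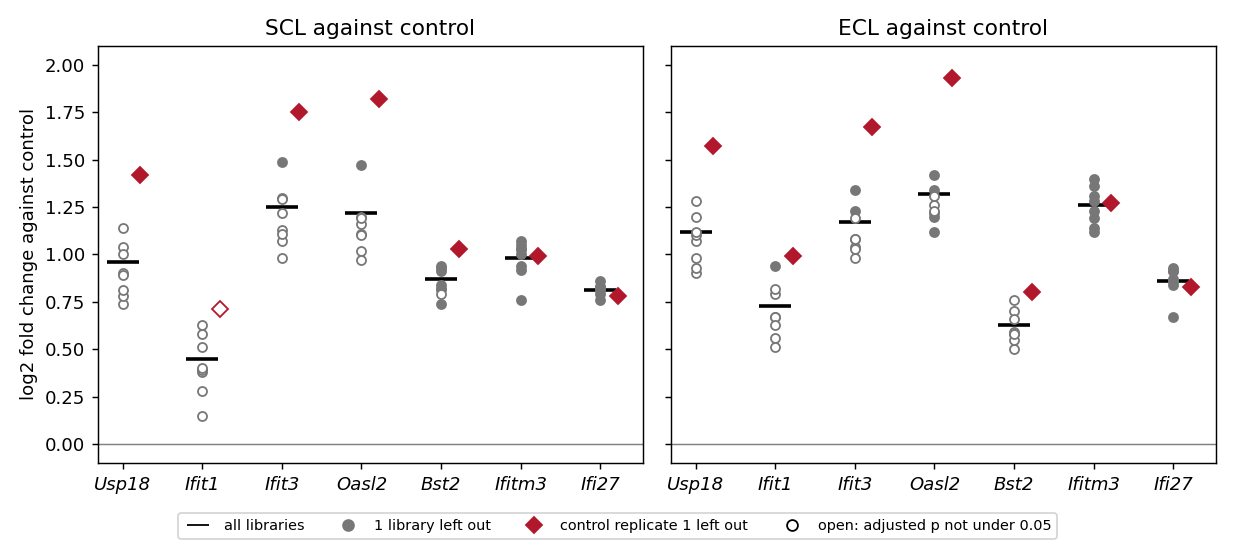
Log2 fold change of the 7 tested genes after SCL (left) and ECL (right) with all libraries (black bars) and with 1 library left out at a time (circles, and a diamond where control replicate 1 is left out); open symbols did not pass an adjusted p of 0.05. Leaving out control replicate 1 gives the highest value for Usp18, Ifit1, Ifit3, Oasl2 and Bst2 and little change for Ifitm3 and Ifi27, which pass in every case.

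Without control replicate 1, 6 of the 7 genes were called after SCL and 7 of 7 after ECL. Leaving out SCL replicate 2 left Ifitm3 and Ifi27 as the 2 called after SCL. The same 2 genes were left after ECL without control replicate 5, ECL replicate 2 or ECL replicate 4. Ifitm3 and Ifi27 were called under each of the 22 alternatives tried for each lesion, with log2 fold changes of 0.54 to 1.18 and 0.45 to 1.02 after SCL and 0.77 to 1.43 and 0.45 to 1.06 after ECL.

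Fold changes in these data moved with gene length. Among genes with less than 1 kb of exon, the median log2 fold change was 0.38 after SCL and 0.41 after ECL, and 32.3% and 41.1% of them were called higher, against 6.12% and 6.42% of genes with 4 kb or more, whose median was -0.11 after both lesions. Ifitm3 has 678 bases of exon, Bst2 903, Ifi27 1467 and Ifit3 1745. An offset for exon length and GC content in each library was therefore fitted, after the data had been seen. With it, the SCL calls were Ifitm3 (0.54, edgeR adjusted p = 0.0217) and Ifi27 (0.45, edgeR adjusted p = 0.0128), while Bst2 lay at 0.48 (edgeR adjusted p = 0.12) and Ifit3 at 0.96 (edgeR adjusted p = 0.0913). The ECL calls were Ifitm3 (0.77, edgeR adjusted p = 0.00621), Ifi27 (0.45, edgeR adjusted p = 0.0264) and Oasl2 (1.41, edgeR adjusted p = 0.0177), and Ifit3 lay at 0.89 (edgeR adjusted p = 0.0786). Oasl2, with 6374 bases of exon the longest of the 9, was the one of the 7 tested genes whose log2 fold change the offset raised.

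**Figure D4:**
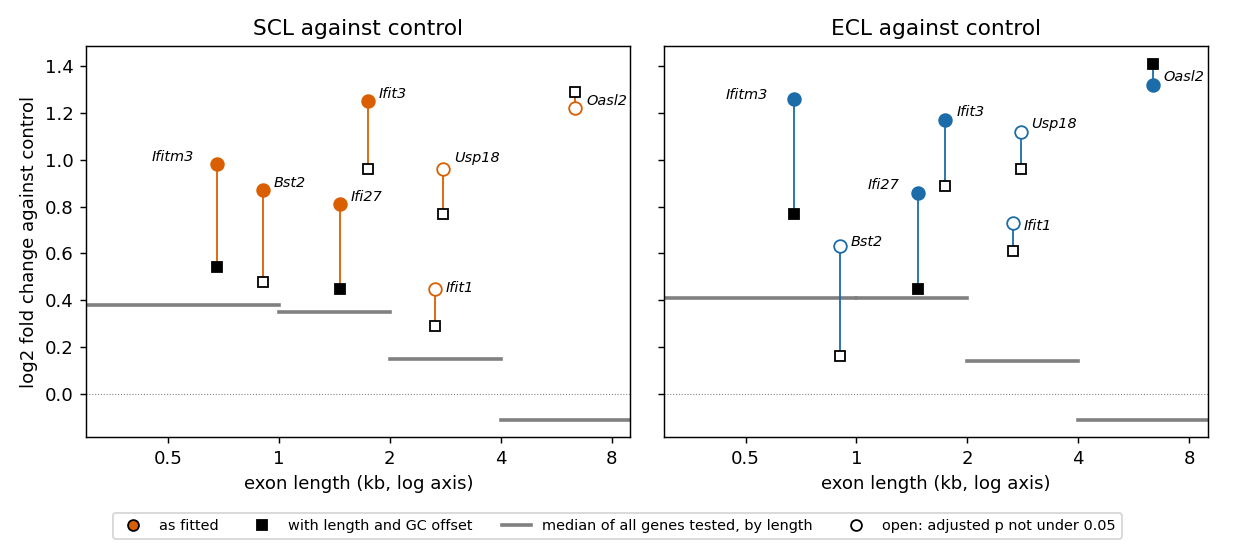
Log2 fold change of the 7 tested genes against exon length (log axis) after SCL (left) and ECL (right), as fitted (circles) and with the length and GC offset (squares, joined by a line); open symbols did not pass an adjusted p of 0.05. Grey bars give the median of all genes tested in each length range, from 0.38 and 0.41 under 1 kb down to -0.11 at 4 kb and over.

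ECL and SCL were also compared directly. None of the 12232 genes tested had an adjusted p under 0.05 by edgeR (0.0%), while 897 had an unadjusted p under 0.05 and DESeq2 called 51. None of the 8 interferon-stimulated genes tested was among the 897 or the 51, and Isg15 was not tested. Of the 8 interferon-stimulated genes tested here, where Irf7 reached the minimum, the log2 fold change of ECL against SCL was 0.29 for Ifit1 (SE 0.34), 0.28 for Ifitm3 (SE 0.25), 0.16 for Usp18 (SE 0.27), 0.11 for Oasl2 (SE 0.30), 0.04 for Ifi27 (SE 0.17), -0.08 for Ifit3 (SE 0.31), -0.23 for Bst2 (SE 0.17) and -0.33 for Irf7 (SE 0.25). The smallest edgeR adjusted p was 0.811, for Bst2. No difference between the lesions was detected for these genes, and the calls for Bst2 after SCL and for Oasl2 after ECL are not shown to differ between the lesions.

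Upstream of these genes, no interferon was abundant enough to be tested. The 21 ligand genes together held 2 to 120 counts per control library, 13 to 39 after SCL and 4 to 24 after ECL, and a single ligand reached at most 31 counts in any library. Ifna1, picked out after its counts were seen, had 10, 2, 9, 14 and 2 counts in the 5 controls and 0 in all 8 lesioned libraries. Over all genes, 29987 to 40042 symbols had a count in the control libraries and 28685 to 35163 in the lesioned libraries. No ligand reached the count minimum, so that no test was made, and cells outside the dissected CA1 region were not sampled.

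Among receptors and signalling genes, 12 of 13 were tested, of which 3 rose and 1 fell after SCL and 2 rose after ECL. These and the list counts that follow are read against all genes tested, of which SCL raised 13.1% and lowered 11.8%, and ECL raised 15.2% and lowered 12.5%. The receptor and signalling count after ECL lay near that share. Ifnar2, a chain of the type I receptor, rose from 10.3 CPM in controls to 20.1 after SCL (log2 0.96, SE 0.21, edgeR adjusted p = 0.00802) and 22.7 after ECL (log2 1.14, SE 0.21, edgeR adjusted p = 0.00159). Its partner Ifnar1 had log2 fold changes of 0.09 and 0.14 that did not pass. Ifngr1, the ligand-binding chain of the interferon-gamma receptor, rose by 0.57 and 0.53 on the log2 scale (edgeR adjusted p = 0.0366 and 0.0395), and both calls were lost with the length and GC offset (edgeR adjusted p = 0.08 and 0.0604). Its partner Ifngr2 changed by -0.46 after SCL (edgeR adjusted p = 0.0277), and Irf9 by 0.45 after SCL (edgeR adjusted p = 0.0378).

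Further genes of this list did not pass the test after either lesion. Stat2, which acts with Irf9, had log2 fold changes of 0.08 after SCL (SE 0.23) and -0.00 after ECL (SE 0.22). For Jak1 the values were -0.02 and 0.06, for Tyk2 -0.04 and -0.19, for Jak2 -0.17 and -0.23, for Stat3 0.21 and 0.20 and for the receptor chain Il10rb 0.10 and 0.04. The median of the list was 0.09 after SCL and 0.05 after ECL.

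Of 10 interferon regulatory factors and their binding proteins other than Irf7, 7 were tested, none rose, and 3 fell after SCL and 2 after ECL. Irf2, a repressor that competes for the response element, fell after SCL from 50.2 to 26.1 CPM (log2 -0.95, SE 0.17, edgeR adjusted p = 0.00307), and its value of -0.51 after ECL did not pass (edgeR adjusted p = 0.0543). The Irf2-binding proteins Irf2bp2 and Irf2bpl, which were picked out after their values were seen, fell after both lesions (log2 -0.76 and -0.66 after SCL, -0.77 and -0.62 after ECL). Irf1, Irf3 and Irf8 had log2 fold changes of -0.06, -0.07 and 0.32 after SCL and -0.12, -0.10 and -0.10 after ECL, none of which passed.

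Of 16 nucleic acid sensors and adaptors, 7 were tested. Tlr7, a receptor for single-stranded RNA, rose after SCL (log2 0.98, SE 0.29, edgeR adjusted p = 0.0264) and had a log2 fold change of 0.37 after ECL (edgeR adjusted p = 0.382). Cgas, the sensor of cytosolic DNA, fell after ECL (log2 -1.02, SE 0.32, edgeR adjusted p = 0.03) and lay at -0.71 after SCL (edgeR adjusted p = 0.148). Tlr3 and the kinase Tbk1 did not pass after either lesion (log2 -0.23 and 0.05 after SCL, -0.12 and -0.35 after ECL).

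Among the enzymes that attach Isg15, 3 of 4 were tested. Ube2l6, the conjugating enzyme, rose from 8.59 CPM in controls to 35.5 after SCL (log2 2.05, SE 0.28, edgeR adjusted p = 0.0013) and 30.4 after ECL (log2 1.83, SE 0.27, edgeR adjusted p = 0.000493). Both calls remained with the length and GC offset, at 1.74 and 1.52. The ligases Herc6 and Trim25 had log2 fold changes of 0.07 and -0.17 after SCL and -0.24 and -0.20 after ECL, and neither passed. Of 10 negative regulators, 7 were tested and edgeR called 0 after either lesion. At an unadjusted p under 0.05 there were 0 after SCL and 1 after ECL, and DESeq2 called 0 and 1. With the length and GC offset, edgeR called 0 after SCL and 1 higher after ECL (Rnaseh2b, log2 0.45, edgeR adjusted p = 0.0473). The nuclease Samhd1, the ribonuclease subunits Rnaseh2b and Rnaseh2c and the phosphatase Ptpn6 had log2 fold changes of -0.36 to 0.37 after SCL and -0.28 to 0.59 after ECL.

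Of 57 further interferon-stimulated effectors, 13 of 31 tested rose after SCL and 11 of 30 after ECL, and none fell. The median log2 fold change was 0.59 and 0.37. Ifi27l2a, a relative of Ifi27, rose from 15.9 to 62.6 CPM after SCL (log2 1.97, SE 0.29, edgeR adjusted p = 0.00157) and to 50.6 after ECL (log2 1.67, SE 0.23, edgeR adjusted p = 0.000288). Ifitm2, the neighbour and relative of Ifitm3, rose from 44.9 to 103 and 98.3 CPM (log2 1.20 and 1.14). Lgals3bp, a secreted galectin-binding glycoprotein, rose by 1.40 and 1.35 on the log2 scale, and Ly6e, a surface protein that restricts coronaviruses, by 1.24 and 1.33. With the length and GC offset, 12 and 10 of the list were called.

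Not all well-known targets of type I interferon passed. Ifit2, Rsad2 and Cxcl10, which were picked out after their values were seen, had log2 fold changes of -0.20, -0.10 and -0.78 after SCL and -0.32, 0.62 and 0.35 after ECL, with edgeR adjusted p of at least 0.335. Ifit2 had a mean of 49.0 CPM in controls, 42.5 after SCL and 39.0 after ECL.

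Of the 16 GTPases induced by interferon-gamma, 6 were tested. Igtp and Gbp2 rose after SCL (log2 1.34 and 1.30, edgeR adjusted p = 0.0183 and 0.0306). Both also rose after ECL (log2 1.43 and 1.29, edgeR adjusted p = 0.00889 and 0.0288). Gbp2, which attacks the vacuoles of intracellular pathogens, lost both calls with the length and GC offset (edgeR adjusted p = 0.0568 and 0.0507). Gbp3 and Gbp7 did not pass, with log2 fold changes of 0.74 and 0.72 after SCL and 0.35 and 0.49 after ECL.

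In the MHC class I pathway, which displays peptides on the cell surface and is raised by interferons, 3 of 10 tested genes rose after SCL and 2 after ECL, beside 13.1% and 15.2% of all genes. With the length and GC offset, 2 rose after SCL, and after ECL 1 rose and 1 fell (H2-K1, a heavy chain picked out after its values were seen, log2 -0.36, edgeR adjusted p = 0.0368). B2m, the light chain of the complex, rose from 316 to 953 CPM after SCL (log2 1.59, SE 0.28, edgeR adjusted p = 0.00289) and 1065 after ECL (log2 1.76, SE 0.28, edgeR adjusted p = 0.000705). Psme2, an activator subunit of the proteasome, rose by 0.70 and 0.51, of which the ECL call was lost with the offset (edgeR adjusted p = 0.324). H2-D1, a heavy chain, rose by 0.52 after SCL (edgeR adjusted p = 0.0311), a call also lost with the offset (edgeR adjusted p = 0.103), and had 0.19 after ECL. The other activator subunit Psme1 did not pass (0.07 and 0.29).

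**Figure D5:**
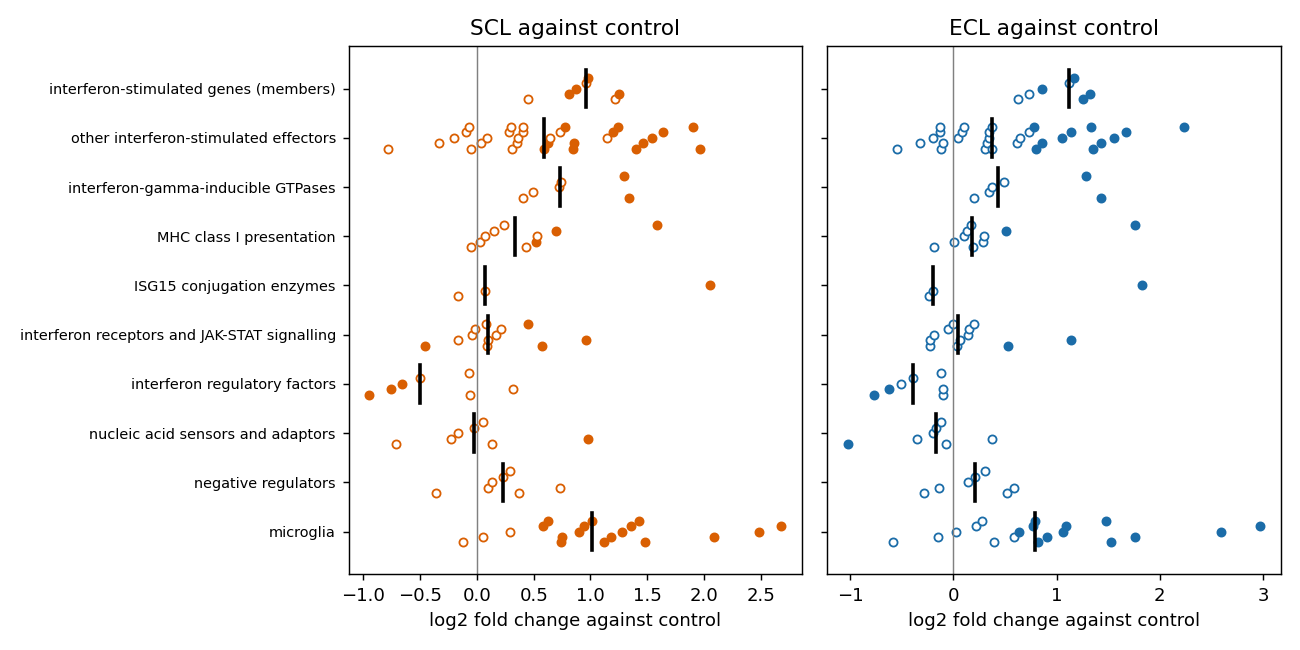
Log2 fold change against control of each tested gene in each list after SCL (left) and ECL (right); filled points passed an adjusted p of 0.05, open points did not, and black bars give the median of each list. The interferon-stimulated genes, the further effectors and the microglia markers have medians of 0.96, 0.59 and 1.01 after SCL and 1.12, 0.37 and 0.79 after ECL, while receptors and JAK-STAT signalling lie at 0.09 and 0.05.

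Many markers of microglia also rose after the lesions. Of 19 microglia markers, 16 rose after SCL and 12 after ECL, none fell, and their summed level was 1284 to 1544 CPM in controls, 2383 to 4318 after SCL and 2363 to 3313 after ECL. No marker was at 0 throughout, and Tmem119 and P2ry12, which define resident microglia, rose after SCL by 0.90 and 0.94 on the log2 scale. After ECL, Tmem119 rose by 0.79, whereas P2ry12 did not pass (0.59, edgeR adjusted p = 0.106), and Siglech, a further marker of resident microglia, passed after neither lesion (0.05 and 0.22). With the length and GC offset, 16 of the markers were called higher after SCL and 9 after ECL, with median log2 fold changes of 0.84 and 0.57. Tmem119 lost its ECL call with the offset (0.50, edgeR adjusted p = 0.089). By culture, the marker sum was highest of the controls in control replicate 1, at 1544 CPM beside 1284 to 1449 CPM in the other controls. It was lowest after SCL in SCL replicate 4 (2383 CPM) and lowest after ECL in ECL replicate 3 (2363 CPM). At the upper end the order differed, since SCL replicate 1 was the highest SCL culture for 6 of the 9 genes with a marker sum of 3141 CPM, while SCL replicate 3 had the highest sum (4318 CPM) and was highest for 1 of the 9, Ifitm3. The part of microglia in the rise of these genes was not tested, and in tissue RNA more cells of a type and more RNA per cell cannot be told apart.

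Markers of other cells are given for comparison. Endothelial and pericyte markers, of which 4 of 18 were tested with none higher and 1 lower after each lesion, summed to 70.8 to 90.2 CPM in controls, 54.3 to 67.8 after SCL and 53.1 to 84.1 after ECL. Astrocyte markers summed to 9541 to 15133 CPM in controls and 10447 to 15120 in lesioned cultures, and of 13 such markers SCL raised 5 and lowered 1, while ECL raised 4 and lowered 1. Of 10 pan-neuronal markers, none was higher, and 3 were lower after SCL and 5 after ECL by edgeR, while DESeq2 called 1 and 2. Oligodendrocyte markers summed to 4775 to 6340 CPM in controls, 4692 to 5970 after SCL and 4218 to 6490 after ECL, and 3 of 12 were higher after each lesion. Among these, Mog and Opalin, myelin membrane proteins picked out after their values were seen, rose by 1.24 and 0.89 after SCL and by 1.32 and 1.41 after ECL on the log2 scale. The part of these cells in the rise of the interferon-stimulated genes was not tested.

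Genes outside the list that varied most like the 7 tested genes between cultures of a group were Rtp4 (r = 0.89), Elavl1 (r = 0.88), Ogfod1 (r = 0.88), Ccl6 (r = 0.88) and Ankrd49 (r = 0.87), over 13 libraries with group means removed. They had the highest r among the 11156 genes tested after both lesions, with the 7 set aside. No test was made, and among so many genes some high r can arise by chance. Rtp4, a chaperone known as an interferon-stimulated gene, rose after SCL (log2 1.64, edgeR adjusted p = 0.00253) and after ECL (log2 1.43, edgeR adjusted p = 0.00175). Of the other 4, Ankrd49 passed after ECL (log2 0.57, edgeR adjusted p = 0.0482), and Elavl1, Ogfod1 and Ccl6 passed after neither lesion.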

How the data were processed

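RNA of 13 CA1 regions was sequenced. The authors trimmed reads with cutadapt 3.5, mapped them with STAR 2.7.8a to the mm10 genome and assigned them to genes with featureCounts 2.0.1 on GENCODE M25 without regard to strand, and the deposited values are raw counts. Between 63.0% and 74.3% of counts from 1 to 20 were even in each library, as when both mates are counted, so halved counts were tried. With halved counts under the same minimum, Usp18 and Oasl2 were no longer tested after SCL. The same 4 interferon-stimulated genes were called of the 5 tested, and 2619 of 9192 genes in all.

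SCL against control, ECL against control and ECL against SCL were fitted separately with edgeR 4.0.16 in R 4.3.3 (glmQLFit and glmQLFTest, two-sided, Benjamini-Hochberg over all genes tested, threshold 0.05). Genes with a mean of 150 or more normalized counts in a fit were tested, and TMM factors were taken over these genes. The SE of a log2 fold change is its size over the square root of the F statistic. CPM values share 1 TMM scale over 13 libraries. Lengths and coordinates come from GENCODE M21 on GRCm38, with lengths and GC content for 98.7% (SCL) and 98.8% (ECL) of genes tested. The offset was fitted with mgcv 1.9.3, and DESeq2 1.42.0 was an alternative. Code was tested on simulated data. The interferon-stimulated genes and all other lists were chosen with earlier results of these data known. All 9 genes are named, as are every tested receptor, JAK-STAT, Irf1 to Irf9 and Isg15-conjugation gene, the 4 genes with the smallest adjusted p of each other pathway list and the 5 most alike by correlation, except 1 gene that is not reported here. Same-numbered replicates of different groups had correlations of deviations from -0.15 to 0.53, and the cultures were not treated as pairs. The column headings carry a further number beside the sex, called the heading number here. It was used as a block in alternative fits and was not checked for pairing. The correlation of 0.53 was that of SCL replicate 1 with ECL replicate 1, both female with heading number 3. The correlations went by replicate number, so they cannot decide whether cultures with the same heading number were paired. Whether cultures of the same group or of different groups shared an animal or a preparation was not tested. No library was left out of the main fits.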

Additional observations from a re-analysis of the deposited data

Results flagged for a closer look

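In 27 groups of values (9 genes in 3 groups), the gap between the most extreme culture and its nearest neighbour was set against the range of the group on the log2 scale, where chance marks about 1 group in 20. In Ifitm3, SCL replicate 3 held 474 CPM against 267 to 294 CPM in the other 3 SCL cultures, a gap of 0.83 of the range. In Ifi27, ECL replicate 1 held 298 CPM against 183 to 191 CPM in the other 3 ECL cultures, a gap of 0.92 of the range.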

How the results depend on the processing

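Of the 7 tested genes, 4 were called after each lesion, beside 27 and 21 pathway genes. Leaving out 1 library gave 2 to 6 after SCL and 2 to 7 after ECL, 16 to 26 and 14 to 21 called pathway genes and 1679 to 2797 and 2088 to 3062 called genes in all, of which SCL replicate 3 gave the lowest after SCL, and 0 to 54 genes between ECL and SCL. Without a minimum on counts, 9 genes were called after SCL and 7 after ECL, with 50 and 45 pathway genes and 5390 and 8034 genes in all, and 217 genes between ECL and SCL. An adjusted p under 0.01 left 2 and 2 of the genes, and 1045 and 1492 genes in all. TMM factors over all symbols gave 7 after ECL, and the length and GC offset 2 after SCL. The replicate block gave 5 after SCL (with Oasl2, edgeR adjusted p = 0.0118) and 6 after ECL, with 2342 and 2663 genes in all. A block on the heading number ended the call of Ifit3 after SCL (edgeR adjusted p = 0.0625) and ECL (0.0533), and with a sex term those of Ifit3 and Bst2 after SCL (0.0665 and 0.0535). The block gave 1824 genes after SCL, and with a sex term 2 of the 7 genes and 1340 genes after SCL, 1377 genes after ECL and 2 between ECL and SCL. Between ECL and SCL, the sex term and a single fit of all libraries each called 1 gene and DESeq2 51. Signs turned between ECL and SCL for values near 0 and not called. Ifit3 lay at 0.32 with a sex term, 0.30 with the heading block and sex term and -0.31 to 0.19 when 1 library was left out, Ifi27 at -0.01 with the offset and -0.15 to 0.11, Oasl2 at -0.15 to 0.36 and Usp18 at -0.01 to 0.32 with 1 library left out. The causes were not tested. Isg15 and Irf7 lay too low in counts for the main comparison, and the heading block, its sex term and the offset were added after the data had been seen.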
